A study of Arabidopsis thaliana with 10 samples.

Results

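Leaves of the Arabidopsis mutant sgs3-12 were compared with leaves of wild-type Col-0 plants that had grown at 30 °C. SGS3 is an RNA-binding protein that works with the RNA-dependent RNA polymerase RDR6. The comparison takes 4 of the 10 libraries of a study of heat and its inheritance, 2 from sgs3-12 mutants and 2 from Col-0 of the 1st generation kept at 30 °C, and the gene is the unit described, 19221 genes with enough counts of 33602 in the table. All plants were 4 weeks old, the fifth true leaves were taken, and polyA RNA was sequenced. Seeds had germinated on plates at 22 °C, and plants then stood on soil at 22 or 30 °C in days of 16 h light and 8 h dark. The study's design text calls the sgs3-12 plants unstressed, and the labels give them no temperature of their own. The mutant is represented by this allele alone. Genotype and growth temperature therefore differ together between the groups and cannot be told apart: every "higher" or "lower" below means sgs3-12 relative to 30 °C-grown Col-0. The groups were paired because their replicate libraries resembled each other most among the 5 groups of the study, so the small spread is part of how they were chosen. Whether the libraries of a pair come from different plants is not stated. The p-values therefore rest on the spread between these samples alone, and that spread may be technical.

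SGS3 binds the cleaved transcripts of TAS loci, RDR6 copies them into double strands, and DCL4 dices these into trans-acting small RNAs that guide ARGONAUTE proteins to target mRNAs. TAS1 small RNAs target the HTT genes, which act in heat tolerance, and TAS3 small RNAs target the auxin response factors ARF2, ARF3 and ARF4. The same proteins amplify silencing of transgenes and of some active transposable elements. Leaves in warm surroundings are known to hold more chaperone mRNA and, at high temperature, to weaken salicylic acid defence.

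Total counts were 22240148 and 20167498 in sgs3-12 and 18894902 and 21649523 in 30 °C-grown Col-0. Levels are given as CPM, counts scaled to a library of 1000000 after TMM scaling (a factor per library that evens out composition), with library 1 before library 2, and differences as log2 fold changes ± SE with n = 2 libraries per group. Across genes, log2 CPM correlated at 0.969 within the sgs3-12 pair, 0.974 within the 30 °C-grown pair and 0.870 to 0.905 between groups, as a description. Gene length moved with the groups: per 10-fold of length, log2 CPM relative to the mean of the libraries changed by 0.811 and 0.378 in sgs3-12 and by −0.844 and −0.344 in 30 °C-grown plants. Genes called higher had a median length of 2312 bp, genes called lower 1327 bp and all tested genes 1703 bp. Mitochondrially encoded genes held 0.00367% and 0.00770% of sgs3-12 counts, and 0.0246% and 0.0164% of those from 30 °C-grown plants.

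Of the 19221 genes, edgeR's quasi-likelihood test called 3782 (19.7%), a call being an adjusted p under 0.05 by Benjamini and Hochberg's method. In sgs3-12, 1988 genes (10.3%) were higher and 1794 (9.33%) lower, and 536 and 659 of these differed by 4-fold or more. The shares of 10.3% and 9.33% are the ones to set beside each count of list members below. Both sgs3-12 libraries lay above both 30 °C-grown libraries for 33.5% of the genes and below them for 33.6%. The 30 °C-grown library 1 weighed most on the count, which fell to 1209 without it and lay between 2737 and 2828 without any other library. A fit over all 10 libraries of the study called 0 genes, with 2341 at an unadjusted p under 0.05, so every call below ends in that fit. DESeq2 called 4840 and limma 3776. In whole leaves, fewer cells of a type and less RNA per cell cannot be told apart.

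**Figure D1:**
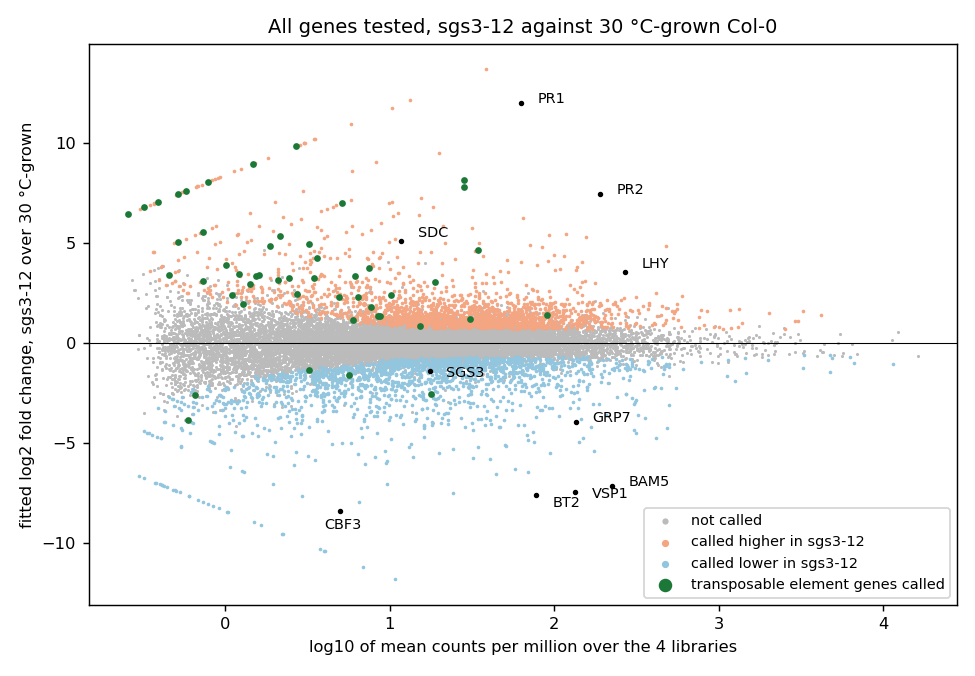
Every tested gene by its mean level (x axis, log10 of CPM over the 4 libraries) and its fitted log2 fold change (y axis, sgs3-12 over 30 °C-grown). Called genes are coloured by direction, called transposable element genes are green, and the labelled genes run from PR1 at 11.99 to CBF3 at −8.41; the straight bands at the left are genes with 0 counts in a group, whose fitted value depends on the prior count.

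**Figure D2:**
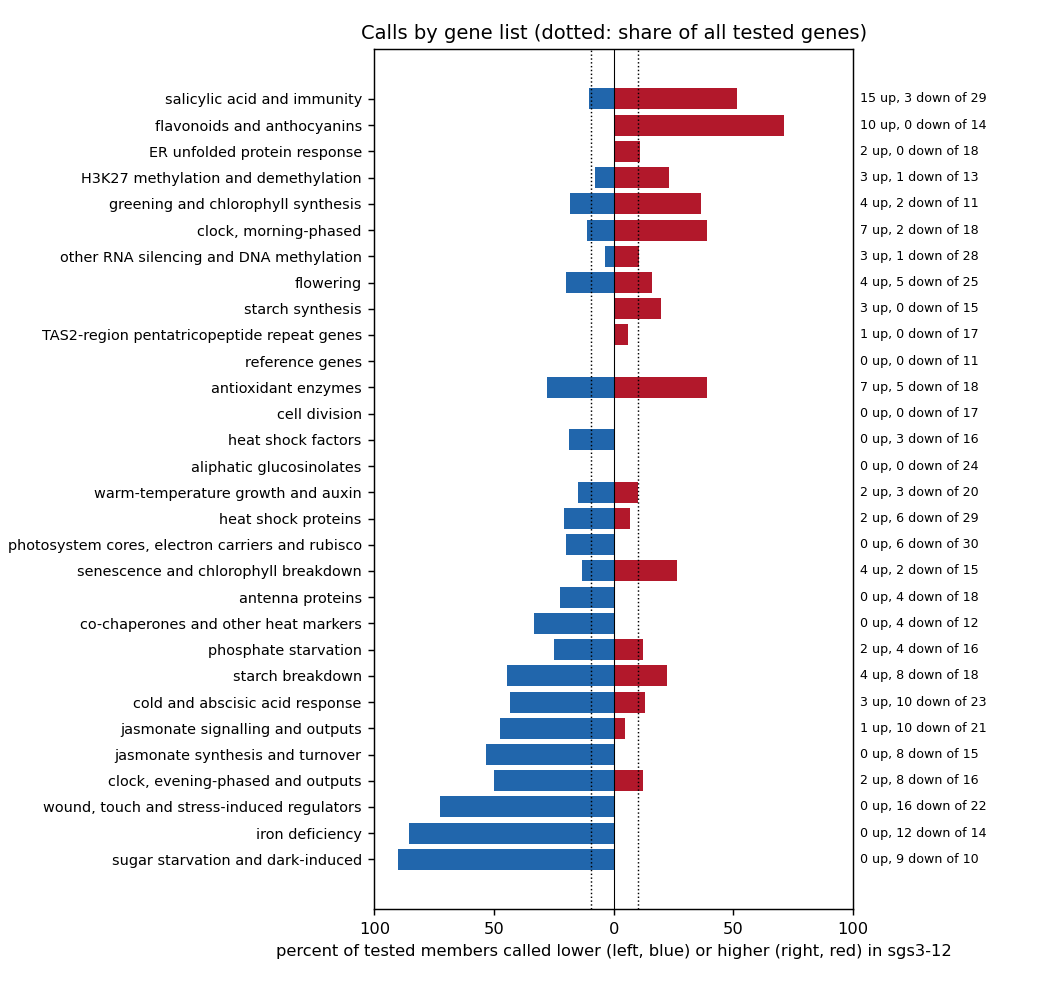
Percent of tested members called lower (left) or higher (right) in sgs3-12 for each gene list with 10 or more tested members, sorted by median log2 fold change, with dotted lines at the shares of all tested genes (9.33% and 10.3%). Wounding and touch (16 of 22 lower), iron deficiency (12 of 14 lower) and sugar starvation (9 of 10 lower) lie at the bottom, and salicylic acid and immunity (15 of 29 higher) at the top.

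SGS3 itself was at a lower level in the mutant. SGS3 (AT5G23570, bases 7943124 to 7946050 of chromosome 5, TAIR10) stood at 10.4 and 8.93 CPM against 27.9 and 23.1 in 30 °C-grown plants, and its log2 fold change was −1.40 ± 0.23 (edgeR's adjusted p = 0.0117). Transcript was still found in both mutant libraries, and the groups did not overlap. Where the lesion of this allele lies is not stated in the sources used here, so the level is no check of the lesion itself. The difference was −1.26 when 30 °C-grown library 1 was left out (adjusted p = 0.0639). Of the 9 tested genes of the trans-acting small RNA machinery, SGS3 included, 3 rose and 1 fell, against 10.3% and 9.33% of all genes, with a median of −0.10. Among the other 8 genes, SDE5, an RNA export-like factor of the pathway, rose with 24.0 and 22.6 CPM against 8.33 and 10.9 (1.27 ± 0.24, adjusted p = 0.0166). DCL4, the Dicer of the pathway, rose with 31.6 and 33.5 CPM against 13.1 and 18.9 (1.02 ± 0.25, adjusted p = 0.0350), and HEN1, which methylates small RNAs, with 17.37 and 14.4 CPM against 6.52 and 9.12 (1.02 ± 0.27, adjusted p = 0.0429). RDR6 stood at 30.9 and 24.1 CPM against 19.1 and 23.1 (0.38 ± 0.23, adjusted p = 0.278) and AGO7, the ARGONAUTE that sets off TAS3 processing, at 8.20 and 14.04 CPM against 13.6 and 13.5 (−0.29 ± 0.30, adjusted p = 0.528). Of the genes named in this paragraph, only AGO7 had libraries that overlapped between groups. Part of SDE5's locus overlaps another gene, and the sources used here do not state the counting of shared reads. Without 30 °C-grown library 1, the calls of SDE5, DCL4 and HEN1 were lost (adjusted p from 0.103 to 0.225), that of HEN1 without 30 °C-grown library 2 (adjusted p = 0.0554), those of DCL4 and HEN1 without sgs3-12 library 1 (adjusted p from 0.0586 to 0.113), and those of DCL4 and HEN1 without sgs3-12 library 2 (adjusted p from 0.0551 to 0.0707). Length correction ended those of DCL4 and HEN1 (adjusted p from 0.142 to 0.357). It left 1 gene of the list called higher and 2 called lower.

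None of the 5 tested TAS precursors was called by edgeR or DESeq2, and 1 of them, TAS2, had an unadjusted p under 0.05 (0.0436). TAS2 stood at 14.6 and 11.7 CPM against 9.45 and 5.30, TAS1A at 6.96 and 5.75 CPM against 6.25 and 5.39, TAS1B at 6.87 and 9.08 CPM against 9.78 and 6.51 and TAS1C, whose locus overlaps a coding gene, at 8.51 and 7.04 CPM against 8.12 and 6.70. TAS3A was at 18.9 and 12.5 CPM against 24.0 and 21.2, and TAS3B, TAS3C and TAS4 had too few counts. The log2 fold changes of the 5 tested loci ran from −0.53 to 0.84, and polyA libraries hold precursors, not the small RNAs.

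Some targets of these small RNAs passed the test: 1 of 4 tested HTT genes, 1 of 3 ARF genes, 1 of 2 TAS4 targets and 1 of 17 genes of the TAS2 target family. Of all tested genes 19.7% were called, and lists this short allow no reading of such counts. HTT2 (AT5G18040, bases 5972419 to 5974156 of chromosome 5), a TAS1 target, was at 39.7 and 45.7 CPM against 11.7 and 12.3, 3.56-fold higher in sgs3-12 (1.83 ± 0.21, adjusted p = 0.00443). HTT1 stood at 3.37 and 2.88 CPM against 2.78 and 2.23 (adjusted p = 0.575), HTT3 at 1.64 and 2.38 CPM against 5.18 and 2.56 (adjusted p = 0.203) and HTT4 at 0.620 and 1.04 CPM against 0 and 0.465 (adjusted p = 0.287), and HTT5 had too few counts. ARF4 (AT5G60450, bases 24308322 to 24312698 of chromosome 5) was at 129 and 89.6 CPM against 28.6 and 27.5, 3.89-fold higher (1.96 ± 0.25, adjusted p = 0.00559), and both mutant libraries lay far above both others. ARF3 was at 40.6 and 27.9 CPM against 30.3 and 20.8 (adjusted p = 0.325) and ARF2 at 341 and 317 CPM against 271 and 277 (adjusted p = 0.348). HTT2 and ARF4 passed the test without each of the 4 libraries in turn. Of the TAS4 targets, which control anthocyanin, MYB114 fell from 0.641 and 0.698 CPM to 0 and 0.0496 (ratio 28.7-fold, 95% counting interval 4.73 to 1174, adjusted p = 0.0331), and MYB75 was at 0.443 and 3.67 CPM against 5.34 and 4.19 (adjusted p = 0.319). Among 17 tested pentatricopeptide repeat genes of the TAS2 target family, AT1G12775 was called higher, with 11.2 and 10.12 CPM against 5.18 and 5.44. Its locus overlaps another gene, and summed over both it went the other way, at 37.9 and 34.4 CPM against 122.8 and 101.8. Leaving out 30 °C-grown library 1 ended the calls of MYB114 and AT1G12775 (adjusted p from 0.132 to 0.184), that of AT1G12775 without 30 °C-grown library 2 (adjusted p = 0.118), those of MYB114 and AT1G12775 without sgs3-12 library 1 (adjusted p from 0.101 to 0.137), and those of MYB114 and AT1G12775 without sgs3-12 library 2 (adjusted p from 0.0637 to 0.0650). Adjusting for gene length ended those of MYB114 and AT1G12775 (adjusted p from 0.0521 to 0.0596), and DESeq2 ended that of MYB114 (adjusted p = 0.0540).

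Some transposable element genes and a silenced F-box gene were higher in sgs3-12 than in 30 °C-grown Col-0. SDC (AT2G17690, bases 7682383 to 7684083 of chromosome 2), whose promoter is normally silenced through repeats, was at 32.7 and 13.1 CPM against 0.427 and 0.884, 34.2-fold higher (5.10 ± 0.59, adjusted p = 0.00442). Of 155 tested genes that the table describes as transposable element genes, 44 (28.4%) were called higher and 5 (3.23%) lower, against 10.3% and 9.33% of all genes, and their median log2 fold change was 0.27 against 0.01. This class was formed after values had been seen and carries no test. The filter also admits a gene with enough counts in a single group. Of those called higher, 8 had 0 counts in both 30 °C-grown libraries, so the share and the median depend partly on that selection. The neighbours AT2G15800 (chromosome 2, 6880825 to 6882741) and AT2G15810 (6882821 to 6886775) stood at 78.7 and 33.7 CPM and 77.7 and 36.02 CPM in sgs3-12, against 0.320 and 0.186 and 0 and 0.372. AT4G04293 was at 56.2 and 76.5 CPM against 2.35 and 3.02 and AT1G36680 at 12.9 and 7.54 CPM against 0.107 and 0.0465. AT1G36630 had 5.76 and 5.11 CPM in sgs3-12 and 0 counts in both 30 °C-grown libraries, at least 73.1-fold higher; such bounds set the empty group to 3 counts in all. Of the 3900 transposable element genes in the table, 493 and 452 had counts in the sgs3-12 libraries and 265 and 290 in the 30 °C-grown ones. Of 8 copies of the heat-activated retrotransposon ONSEN, 2 had enough counts and were called higher in sgs3-12: AT5G13205 was at 3.63 and 3.92 CPM against 0.481 and 0.372 and AT1G11265 at 2.04 and 2.08 CPM against 0.588 and 0.465. ONSEN copies are nearly identical, so the split of reads between copies is uncertain. Stretches of AT2G15800 match other genes too, but many of those also match unrelated genes, so they are not shown to be copies. AT1G11265 and AT2G15800 also overlap another gene. Summed with its overlapping neighbour, the AT1G11265 locus went the other way, at 3.68 and 5.16 CPM against 10.04 and 7.44, while the AT2G15800 locus held 130.7 and 63.9 against 10.3 and 8.70. The number of transposable element genes called higher was 20 without 30 °C-grown library 1 and 22 without sgs3-12 library 1, and 33, with 9 lower, after correction for gene length. Those called higher had a median length of 3730.5 bp, against 2499 bp for all those tested. AT1G11265 lost its call without each of the 4 libraries in turn (adjusted p from 0.103 to 0.150) and after length correction (adjusted p = 0.0937), and SDC and AT5G13205 passed in all of these fits.

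Elsewhere in RNA silencing and DNA methylation, 3 of 28 tested members were higher and 1 lower, against 10.3% and 9.33% of all genes. Length correction left 2 calls, and the number also moved when either 30 °C-grown library was left out. DCL1, the microRNA Dicer, was at 97.5 and 76.4 CPM against 23.2 and 37.4 (1.52 ± 0.29, adjusted p = 0.0178) and DCL2 at 31.0 and 26.1 CPM against 6.41 and 13.3 (1.53 ± 0.36, adjusted p = 0.0311), both at loci that overlap other genes. AGO3, an ARGONAUTE, fell from 5.34 and 4.46 CPM to 0.709 and 0.595 (−2.90 ± 0.41, adjusted p = 0.00791). Of 13 genes that set or remove the H3K27 methylation mark, SWN (56.9 and 60.4 CPM against 18.7 and 30.2), EMF2 (27.9 and 25.2 CPM against 15.1 and 15.3) and FIE (25.04 and 22.4 CPM against 13.7 and 14.3) rose, all Polycomb subunits, and the demethylase JMJ30 fell (0.399 and 0.843 CPM against 3.37 and 3.53); the 4 calls became 0 without 30 °C-grown library 1 and 1 or 2 without any other library. When 30 °C-grown library 1 was dropped, the calls of DCL1, DCL2, SWN, EMF2, FIE and JMJ30 were lost (adjusted p from 0.0697 to 0.236), those of EMF2, FIE and JMJ30 without 30 °C-grown library 2 (adjusted p from 0.0584 to 0.156), those of DCL2, EMF2, FIE and JMJ30 without sgs3-12 library 1 (adjusted p from 0.0583 to 0.119), and those of SWN, EMF2 and FIE without sgs3-12 library 2 (adjusted p from 0.0544 to 0.0648). The length correction ended those of DCL1, DCL2 and EMF2 (adjusted p from 0.0505 to 0.130), and limma ended that of FIE (adjusted p = 0.0526).

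**Figure D3:**
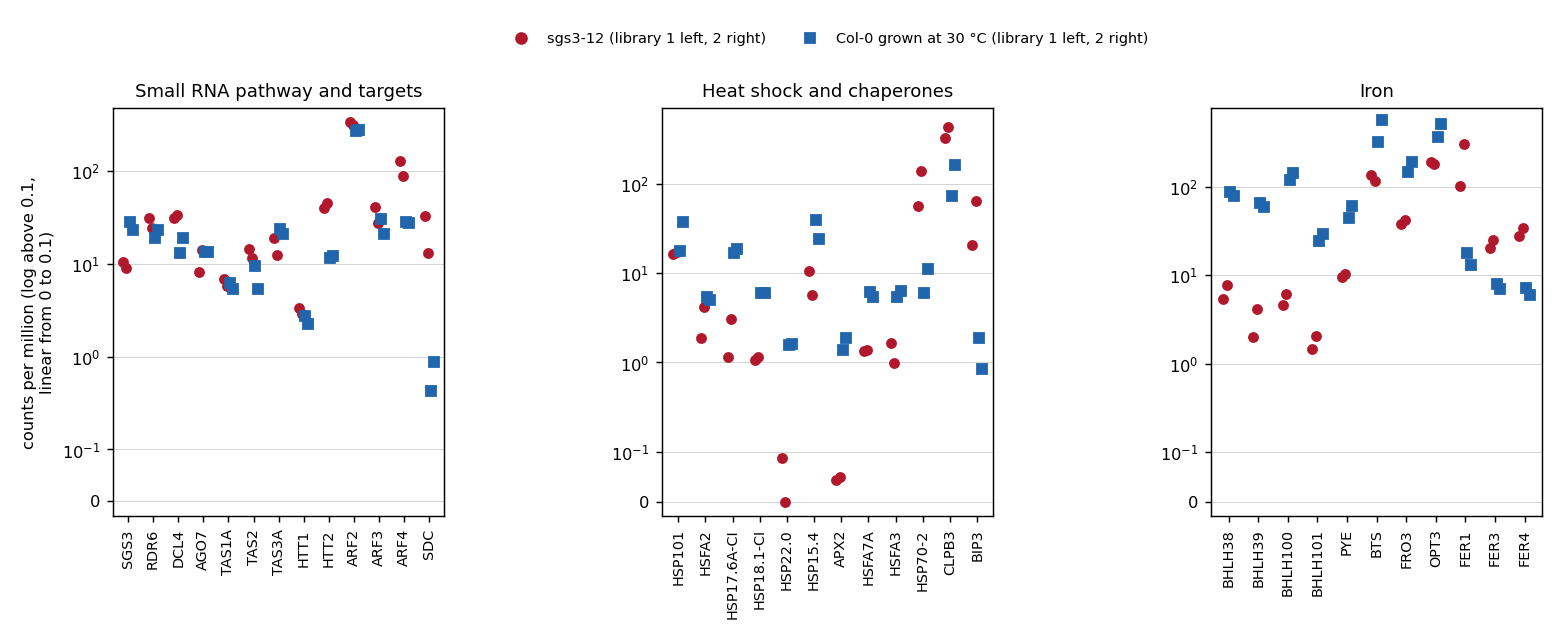
CPM in each library (y axis, logarithmic above 0.1 and linear below) of small RNA genes and targets, heat shock and chaperone genes, and iron genes; red circles are sgs3-12 and blue squares 30 °C-grown Col-0, library 1 left of library 2. ARF4, HTT2 and SDC lie higher in sgs3-12 with no overlap, HSP17.6A-CI, HSP18.1-CI, HSP22.0, HSP15.4 and the bHLH genes lie lower, and AGO7 and TAS1A overlap.

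Heat shock protein genes were split: of 29 tested, 6 fell in sgs3-12, 2 rose and 21 did not pass the test, with a median of −0.30. Of all genes 9.33% fell and 10.3% rose, which also holds beside the counts of heat shock factors and heat markers below. The 6 were HSP70T-2 and 5 small heat shock protein genes, while others of that class such as HSP17.4-CI, at 1.95 and 41.8 CPM against 23.7 and 13.5, did not pass. The small heat shock proteins hold unfolding proteins in solution: HSP17.6A-CI (AT1G59860, bases 22031413 to 22032132 of chromosome 1) was at 1.15 and 3.03 CPM against 16.6 and 18.7 (−3.09 ± 0.45, adjusted p = 0.00825), HSP18.1-CI at 1.06 and 1.14 CPM against 5.93 and 6.05 and HSP15.4 at 10.6 and 5.66 CPM against 39.3 and 24.2. HSP22.0 was at 0.0886 and 0 CPM against 1.55 and 1.63 (ratio 34.0-fold, 95% counting interval 9.03 to 287, lower). The HSP70-related gene HSP70T-2 fell too, at 3.81 and 3.97 CPM against 13.3 and 12.7 (−1.74 ± 0.26, adjusted p = 0.00846). HSP70-2, a cytosolic HSP70, went the other way at 56.9 and 137 CPM against 5.93 and 10.98 (3.52 ± 0.51, adjusted p = 0.00806), as did CLPB3, the chloroplast disaggregase, whose locus overlaps another gene, at 327 and 431 CPM against 72.3 and 163 (1.69 ± 0.39, adjusted p = 0.0315). HSP101, the cytosolic disaggregase of heat tolerance, stood at 16.3 and 17.0 CPM against 17.63 and 37.4 (adjusted p = 0.191), with its sgs3-12 libraries just under 30 °C-grown library 1. Of 16 tested heat shock factors 3 fell and none rose: HSFA7A (1.33 and 1.39 CPM against 6.09 and 5.35), HSFA3 (1.64 and 0.992 CPM against 5.45 and 6.37) and HSFA4A (12.3 and 16.9 CPM against 30.1 and 27.2). HSFA2, which prolongs heat responses, was at 1.86 and 4.22 CPM against 5.45 and 4.98 (adjusted p = 0.254). Among 12 co-chaperones and other heat markers 4 fell, among them APX2, a heat-induced ascorbate peroxidase (0.0443 and 0.0496 CPM against 1.39 and 1.86, ratio 35.1-fold, 95% counting interval 9.33 to 295, lower), and HSA32, which sustains acquired heat tolerance (2.61 and 2.83 CPM against 8.12 and 6.98). The calls of HSP15.4, HSP22.0, CLPB3, HSFA7A, HSFA3, HSFA4A and HSA32 ended when 30 °C-grown library 1 was left out (adjusted p from 0.0507 to 0.163), those of HSFA4A and HSA32 without 30 °C-grown library 2 (adjusted p from 0.0524 to 0.0753), those of HSFA4A and HSA32 without sgs3-12 library 1 (adjusted p from 0.0548 to 0.105), and that of CLPB3 without sgs3-12 library 2 (adjusted p = 0.0682). The count of 8 heat shock protein calls became 4 without 30 °C-grown library 1, 13 without sgs3-12 library 1 and 18 without sgs3-12 library 2. Heat shock factor calls were 1 without 30 °C-grown library 1, and those of co-chaperones and other heat markers 2 without it and 2 without sgs3-12 library 1.

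Of 18 tested genes of the endoplasmic reticulum's unfolded protein response 2 were called higher and none lower, against 10.3% and 9.33% of all genes. Both sgs3-12 libraries lay above both others for 7 of the 18, near the 33.5% of all genes. The summed level of the list was 1841 and 4531.5 CPM in sgs3-12 against 1239.95 and 1748, highest in sgs3-12 library 2. BIP3, an HSP70 of that compartment made on folding stress, was at 20.8 and 63.8 CPM against 1.87 and 0.837 (4.98 ± 0.67, adjusted p = 0.00657), and the sensor gene BZIP17 at 25.4 and 36.2 CPM against 16.2 and 16.2 (0.93 ± 0.25, adjusted p = 0.0436). Without sgs3-12 library 1 the list had 12 calls, and with any other library left out 1 or 2. BZIP17 lost its call without every library but sgs3-12 library 1 (adjusted p from 0.115 to 0.178) and after length correction (adjusted p = 0.0922), and BIP3 passed in all of these fits.

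Salicylic acid defence genes were higher in the mutant. Of 29 tested genes of salicylic acid and immunity, 15 were higher and 3 lower, with a median of 1.68 against 0.01 over all genes. Both sgs3-12 libraries lay above both others for 21 of the 29, against 33.5% of all genes. PR1 (AT2G14610, bases 6241704 to 6242463 of chromosome 2), the usual marker of salicylic acid responses, was at 131 and 121 CPM in sgs3-12 and 0.0534 and 0 in 30 °C-grown plants, where a single count was found. The ratio of its counts was 5088-fold, 95% counting interval 913 to 200982 (adjusted p = 0.000616). PR2, a glucanase that attacks microbial walls, was at 236 and 521 CPM against 3.42 and 0.977 (7.44 ± 0.72, adjusted p = 0.00266), and PR5, a thaumatin-like protein, at 244 and 366 CPM against 7.85 and 7.86 (5.28 ± 0.30, adjusted p = 0.00113). In every one of these the mutant libraries lay far above the others. Upstream of them, the regulators SARD1 (40.0 and 74.4 CPM against 5.40 and 6.46; 3.27 ± 0.36) and CBP60G (25.3 and 33.7 CPM against 7.69 and 7.12; 1.99 ± 0.25) switch on the salicylic acid synthase ICS1, which was at 32.3 and 36.3 CPM against 14.4 and 16.3 (1.16 ± 0.21, adjusted p = 0.0161). EDS5, which exports the precursor from the chloroplast, was at 6.03 and 10.9 CPM against 1.82 and 1.35, though its locus overlaps another gene.

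FMO1 and ALD1, enzymes of the pipecolic acid branch that spreads immunity through the plant, rose as well. FMO1 was at 3.06 and 9.13 CPM against 0 counts, at least 79.4-fold higher, and ALD1 at 0.931 and 15.6 CPM against 0.0534 and 0.0930, low in sgs3-12 library 1. EDS1, a hub of resistance signalling, was at 68.6 and 50.9 CPM against 12.98 and 24.9 and its partner SAG101 at 19.5 and 25.8 CPM against 7.75 and 7.72. FRK1, a receptor kinase of the flagellin response, was at 3.63 and 6.35 CPM against 0.107 and 0.0465, PAD3, the last step to the antimicrobial camalexin, at 3.46 and 11.9 CPM against 0.160 and 0.558, and WRKY46 at 12.6 and 17.5 CPM against 3.04 and 5.58. Against this, 3 WRKY factors that respond early to wounding and microbes were lower: WRKY40 (3.72 and 4.86 CPM against 23.61 and 32.1), WRKY33 (46.7 and 53.7 CPM against 115 and 119) and WRKY53 (10.8 and 15.5 CPM against 29.5 and 38.3), all at loci that overlap another gene. Leaving out each library in turn gave 14 to 20 calls in the list. With 30 °C-grown library 1 left out, ICS1, ALD1, EDS1 and WRKY46 no longer passed (adjusted p from 0.0716 to 0.102), nor did ALD1 and WRKY53 without 30 °C-grown library 2 (adjusted p from 0.0589 to 0.0603), nor did EDS1 and WRKY53 without sgs3-12 library 1 (adjusted p from 0.0502 to 0.0520), nor did ALD1 and WRKY46 without sgs3-12 library 2 (adjusted p from 0.0543 to 0.0751).

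Of the genes with the largest rises, several more encode receptors or defence enzymes. AT4G10500 (bases 6491017 to 6492476 of chromosome 4), an oxygenase by its description, had 56.4 and 98.3 CPM in sgs3-12 and 0 counts at 30 °C, at least 1021-fold higher. CRK37, a cysteine-rich receptor-like kinase, had 13.1 and 10.2 CPM against 0 counts, at least 157-fold higher, and CRK7, of the same family, was at 29.3 and 32.8 CPM against 0.320 and 0.0930. The leucine-rich repeat receptor kinases AT1G51860 and AT1G51890 were at 12.8 and 20.14 CPM and 10.7 and 12.8 CPM, against a single count each at 30 °C. AT3G28510, a nucleoside triphosphate hydrolase by its description, was at 16.1 and 25.3 CPM against 0 counts, and AT3G29639 at 39.4 and 40.7 CPM against 0.0534 and 0.0465. AT5G01710 also ranked here, with 26.498 and 26.6 CPM against 0 and 0, but it shares its start and end with AT5G01712. Summed over both, the locus held 56.7 and 55.8 CPM against 58.5 and 60.7, so no such difference was seen for the locus as a whole. Among the largest falls, AT4G36700, a cupin by its description, had 24.6 and 18.6 CPM in 30 °C-grown plants and 0 counts in sgs3-12, at least 304.5-fold lower. SLP2, uncharacterized by its description, had 14.4 and 13.4 CPM against 0 counts, at least 197-fold lower. AT3G62550, an adenine nucleotide alpha hydrolase-like protein by its description, was at 1.68 and 1.44 CPM against 146 and 128 (−6.45 ± 0.26, adjusted p = 0.000616), and MEE14, named for an embryo arrest, at 1.77 and 1.14 CPM against 132 and 98.6 (−6.29 ± 0.34, adjusted p = 0.00112). UMAMIT33, of a transporter family, was at 0.0886 and 0 CPM against 16.5 and 9.53, and its locus overlaps another gene; summed over both it stood at 11.4 and 7.59 CPM against 29.7 and 26.2. These 5 passed in every fit that left out 1 library. CBF2, CBF3, BT2, AT4, VSP1, BAM5 and ERF6, given with their groups, complete the 12 largest falls. Of all called genes 14.8% overlapped another gene with counts, and of all tested genes 16.4%.

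**Figure D4:**
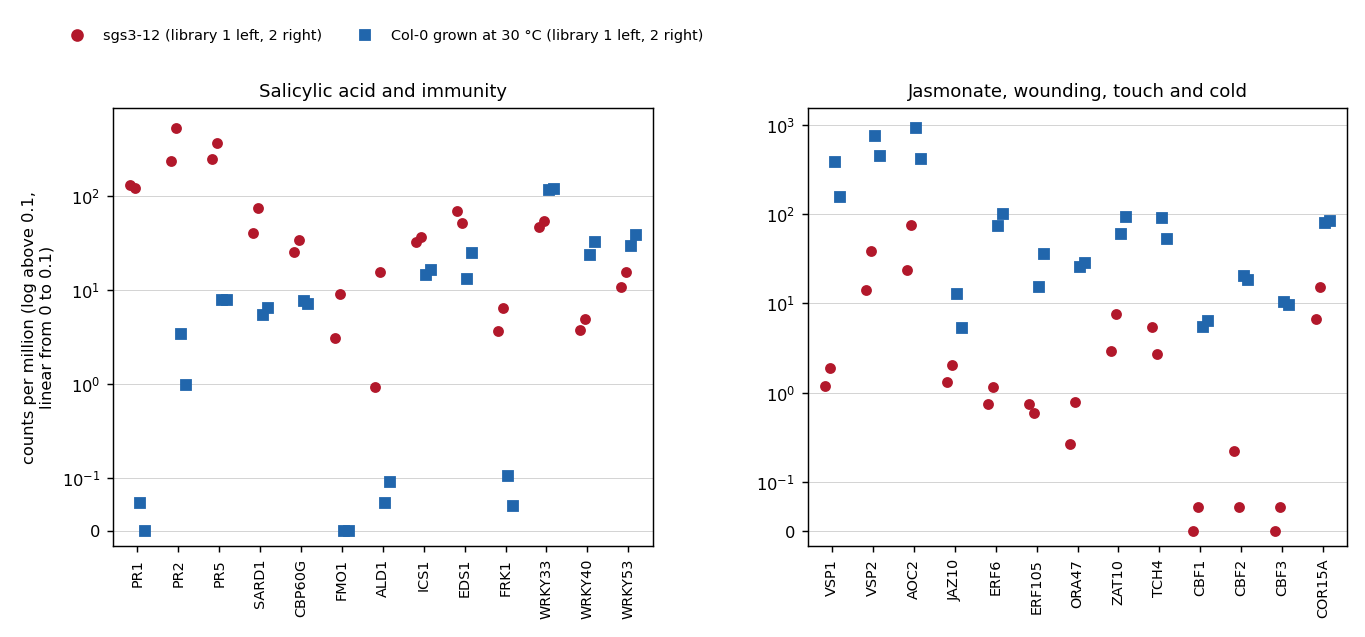
CPM in each library (y axis, logarithmic above 0.1 and linear below) of salicylic acid and immunity genes at the left and of jasmonate, wound, touch and cold genes at the right; red circles are sgs3-12 and blue squares 30 °C-grown Col-0. PR1, PR2 and PR5 lie above 100 CPM in both sgs3-12 libraries and below 10 in both others, and the genes at the right lie lower in sgs3-12.

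Jasmonate genes were lower. Jasmonate is the wound hormone, and it often opposes salicylic acid. Of 15 tested genes of its synthesis and turnover 8 fell and none rose, with a median of −1.40. The cyclase gene AOC2 was at 23.57 and 75.2 CPM against 916 and 418 (−3.76 ± 0.64, adjusted p = 0.0129), the lipoxygenase gene LOX3 at 18.2 and 29.1 CPM against 68.7 and 56.0 (−1.40 ± 0.28, adjusted p = 0.0213) and the conjugate hydrolase gene ILL6 at 7.22 and 10.96 CPM against 72.0 and 34.8 (−2.55 ± 0.41, adjusted p = 0.0107). Of 21 tested genes of signalling and output 10 fell and 1 rose, with a median of −1.29. VSP1 (AT5G24780, bases 8507590 to 8508957 of chromosome 5), a vegetative storage protein, was at 1.196 and 1.89 CPM against 380.0 and 155, 174-fold lower (−7.44 ± 0.58, adjusted p = 0.00167), and VSP2 at 14.2 and 38.5 CPM against 760.3 and 447, 22.9-fold lower. The repressor genes JAZ1 (12.8 and 17.3 CPM against 36.5 and 32.5) and JAZ10 (1.33 and 2.03 CPM against 12.8 and 5.35) fell, as did MYC2, their target factor (61.9 and 107 CPM against 258 and 155). TAT3, a tyrosine aminotransferase gene, was the riser, at 44.4 and 301 CPM against 15.9 and 4.46. For synthesis, 2 were called without 30 °C-grown library 1 and 7 to 10 without any other library; for signalling, 4 without 30 °C-grown library 1, 4 without sgs3-12 library 1, and 11 or 12 otherwise. Without 30 °C-grown library 1, the calls of LOX3, JAZ1, JAZ10 and MYC2 were lost (adjusted p from 0.0839 to 0.208), that of TAT3 without 30 °C-grown library 2 (adjusted p = 0.0600), those of JAZ1, JAZ10 and MYC2 without sgs3-12 library 1 (adjusted p from 0.0548 to 0.123), and that of TAT3 without sgs3-12 library 2 (adjusted p = 0.0618).

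Fast stress regulators were lower: 16 of 22 tested genes of wounding and touch fell and none rose, with a median of −2.13. ERF6 (AT4G17490, bases 9752824 to 9753867 of chromosome 4), an ethylene response factor of stress and growth arrest, was at 0.753 and 1.14 CPM against 74.5 and 101, 92.4-fold lower (−6.53 ± 0.34, adjusted p = 0.00112). ERF105 (0.753 and 0.595 CPM against 15.44 and 35.5), ERF5 (2.08 and 1.93 CPM against 25.9 and 42.3), ERF104 (3.10 and 4.32 CPM against 39.6 and 61.8) and ORA47, an activator of jasmonate synthesis (0.266 and 0.794 CPM against 25.7 and 28.4), moved with it. The zinc finger genes ZAT10 (2.92 and 7.64 CPM against 59.7 and 93.4) and SZF1 (26.4 and 28.7 CPM against 115 and 148) and the touch-induced xyloglucan hydrolase gene TCH4 (5.49 and 2.73 CPM against 91.4 and 52.5) were also lower, with no overlap between groups. The list had 13 to 15 calls over the fits that left out 1 library. Every gene named here passed in each of these fits.

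Of 23 tested genes of cold and abscisic acid response 10 fell and 3 rose, with a median of −1.19. The 3 CBF factors, neighbouring genes that switch on cold tolerance, were near 0 counts in sgs3-12: CBF1 was at 0 and 0.0496 CPM against 5.40 and 6.28, CBF2 at 0.222 and 0.0496 CPM against 20.03 and 18.4 and CBF3 at 0 and 0.0496 CPM against 10.47 and 9.63. The count ratio of CBF3 was 428-fold, 95% counting interval 76.4 to 16949, lower in sgs3-12. COR15A, a chloroplast-protecting protein, was at 6.74 and 15.43 CPM against 80.0 and 84.6 (−2.89 ± 0.40, adjusted p = 0.00699). COR47 was at 135 and 158 CPM against 343 and 325, and NCED3, the key step to abscisic acid, at 3.90 and 6.50 CPM against 36.4 and 24.3. RD22 (469 and 733 CPM against 148 and 158), RD29A (34.4 and 54.8 CPM against 12.1 and 21.5) and KIN1 (1.02 and 1.14 CPM against 0.107 and 0.186), of the same list, were higher. Fits without 1 of the libraries called 8 to 11 of its genes, with 8 without 30 °C-grown library 1. Leaving out 30 °C-grown library 1 ended the calls of COR47, RD29A and KIN1 (adjusted p from 0.0647 to 0.198), that of KIN1 without 30 °C-grown library 2 (adjusted p = 0.104), that of KIN1 without sgs3-12 library 1 (adjusted p = 0.103), and those of RD29A and KIN1 without sgs3-12 library 2 (adjusted p from 0.0998 to 0.105). The length correction ended that of RD29A (adjusted p = 0.0546).

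Clock genes moved in both directions: of 18 tested morning-phased genes 7 rose and 2 fell in sgs3-12, and of 16 tested evening-phased genes and outputs 8 fell and 2 rose. The plant clock is a loop in which CCA1 and LHY, made around dawn, repress evening genes through the evening element of their promoters, and evening proteins repress the dawn genes in turn. LHY (AT1G01060, bases 33379 to 37871 of chromosome 1) was at 541 and 453 CPM against 44.6 and 41.3, 11.6-fold higher (3.53 ± 0.22, adjusted p = 0.00127), and CCA1 at 412 and 337 CPM against 84.2 and 101, 4.05-fold higher (2.02 ± 0.22, adjusted p = 0.00396). RVE8, a related activator, was at 173 and 141 CPM against 36.6 and 26.6, and its partner LNK2 at 1064 and 646 CPM against 257 and 273. The morning-phased genes that fell were RVE2 (3.81 and 1.89 CPM against 29.97 and 18.8) and RVE7 (3.81 and 4.32 CPM against 21.95 and 18.9), the latter with a near-identical copy elsewhere. GRP7 (AT2G21660, bases 9265249 to 9266393 of chromosome 2), an RNA-binding output that peaks late in the day, was at 15.95 and 17.2 CPM against 258 and 253, 15.41-fold lower (−3.95 ± 0.21, adjusted p = 0.00112). PRR5 (0.620 and 0.0496 CPM against 10.2 and 12.4), and the evening complex genes LUX (1.82 and 2.48 CPM against 17.36 and 12.8), ELF3 (5.76 and 3.52 CPM against 18.05 and 17.63) and ELF4 (0.0886 and 0.496 CPM against 4.38 and 4.79), were lower too. FKF1, a blue-light receptor of day length, had 0 counts in sgs3-12 against 0.908 and 0.744 CPM, at least 11.7-fold lower. The evening list had a median of −1.65. The hour of harvest is not stated in the sources used here, and the part of the clock's phase in the other differences was not tested. With 1 library left out in turn, 7 to 9 evening genes were called, and of morning genes 5 without 30 °C-grown library 1. When 30 °C-grown library 1 was dropped, the calls of LNK2 and FKF1 were lost (adjusted p from 0.0519 to 0.0920), that of FKF1 without sgs3-12 library 1 (adjusted p = 0.0594), and that of FKF1 without sgs3-12 library 2 (adjusted p = 0.0514).

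Some promoters of these clock genes hold letters that the loop is known to use. The evening element (AAAATATCT, searched on both strands) lies in the 250 bases before the annotated start of 7 of 16 evening-list genes (43.8%), against 2.4% of 26711 nuclear protein-coding genes. Among genes called lower the share was 5.64% and among genes called higher 2.04%. The G-box (CACGTG, the same on both strands) lies in 8 of 18 morning-list promoters (44.4%), against 6.58% of all; of these 8 genes LHY, CCA1 and PRR9 were called higher, RVE2 lower, and RVE1, PRR7, LNK3 and CDF2 were not called. Both were counted without regard to the other, a match is a description and not a binding site, and no test was made. Below are promoters of 4 genes that were lower and 2 that were higher in sgs3-12, 250 bases each, 5′ to 3′ on the gene's strand, from RefSeq's TAIR10.1, with the evening element (GRP7, LUX, PRR5, FKF1) or the G-box (LHY, CCA1) in capitals.
GRP7 (chr2:9266558-9266807, - strand): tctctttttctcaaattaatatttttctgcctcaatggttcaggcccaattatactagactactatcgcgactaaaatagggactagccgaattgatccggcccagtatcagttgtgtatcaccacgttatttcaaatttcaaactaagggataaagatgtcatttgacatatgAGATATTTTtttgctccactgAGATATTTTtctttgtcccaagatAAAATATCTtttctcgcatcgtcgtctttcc
LUX (chr3:17182792-17183041, + strand): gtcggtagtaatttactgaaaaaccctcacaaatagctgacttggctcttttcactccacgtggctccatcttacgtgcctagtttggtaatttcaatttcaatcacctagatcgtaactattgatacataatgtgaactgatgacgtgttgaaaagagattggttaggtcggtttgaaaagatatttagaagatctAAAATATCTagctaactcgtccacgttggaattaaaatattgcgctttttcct
PRR5 (chr5:8358547-8358796, - strand): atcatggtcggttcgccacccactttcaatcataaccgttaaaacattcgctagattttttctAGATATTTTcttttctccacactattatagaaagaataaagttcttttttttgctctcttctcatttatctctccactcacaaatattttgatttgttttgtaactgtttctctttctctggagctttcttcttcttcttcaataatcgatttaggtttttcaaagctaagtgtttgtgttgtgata
FKF1 (chr1:25508389-25508638, + strand): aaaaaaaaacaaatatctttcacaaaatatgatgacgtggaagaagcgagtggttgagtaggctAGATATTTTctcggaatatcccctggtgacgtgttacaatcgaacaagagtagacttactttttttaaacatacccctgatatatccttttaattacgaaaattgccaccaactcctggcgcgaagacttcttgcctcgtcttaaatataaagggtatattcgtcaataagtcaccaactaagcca
LHY (chr1:37872-38121, - strand): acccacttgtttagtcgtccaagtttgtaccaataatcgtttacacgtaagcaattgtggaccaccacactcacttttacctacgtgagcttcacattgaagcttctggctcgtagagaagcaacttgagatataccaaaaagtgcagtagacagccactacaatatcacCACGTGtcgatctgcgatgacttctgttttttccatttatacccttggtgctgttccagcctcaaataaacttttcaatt
CCA1 (chr2:19245341-19245590, + strand): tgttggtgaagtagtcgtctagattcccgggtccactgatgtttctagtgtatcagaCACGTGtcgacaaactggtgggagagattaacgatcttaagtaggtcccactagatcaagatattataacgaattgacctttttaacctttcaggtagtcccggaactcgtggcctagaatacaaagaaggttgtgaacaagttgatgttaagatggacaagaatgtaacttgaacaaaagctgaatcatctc
GRP7 holds 3 matches to its element in this window and each of the others 1 match, and LUX also holds a G-box, left in lower case. The windows use RefSeq's gene starts, which can differ from the loci given with the genes. For GRP7 they do, so its window does not adjoin the locus printed above.

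**Figure D5:**
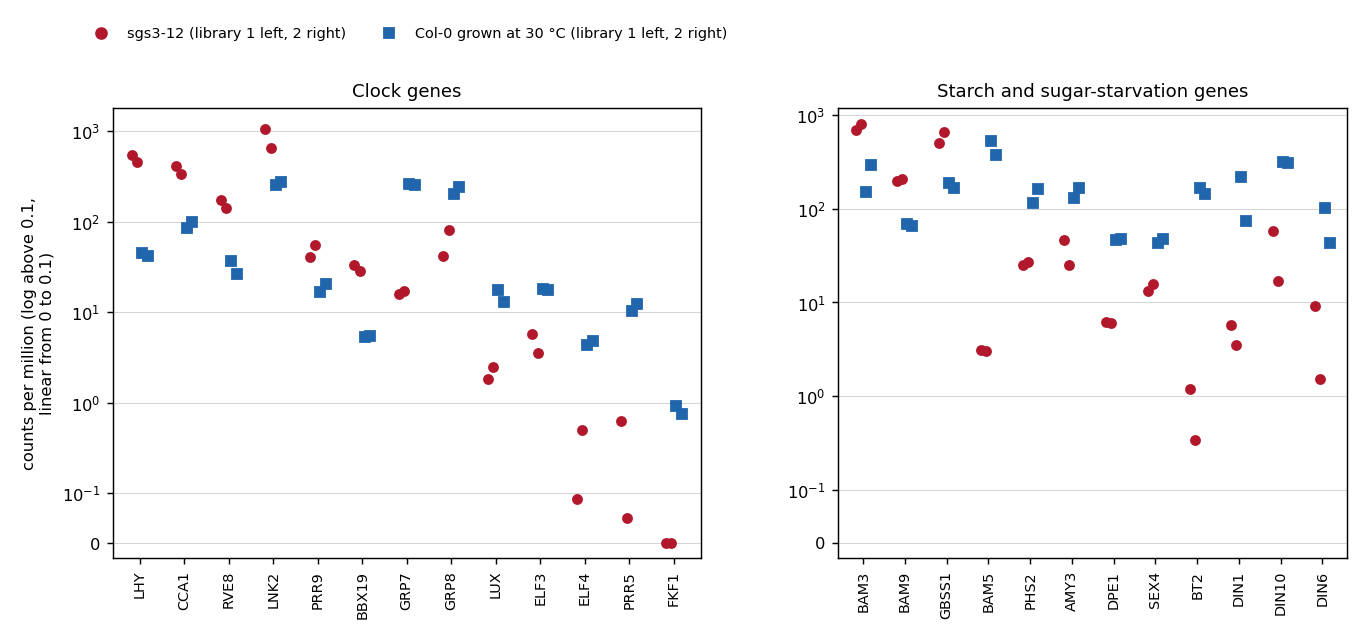
CPM in each library (y axis, logarithmic above 0.1 and linear below) of clock genes at the left and of starch and sugar-starvation genes at the right; red circles are sgs3-12 and blue squares 30 °C-grown Col-0. LHY, CCA1, RVE8, LNK2, PRR9 and BBX19 lie higher in sgs3-12, and the evening genes from GRP7 to FKF1 lower, with no overlap.

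Sugar-starvation genes were far lower in the mutant: 9 of 10 tested genes that darkness or lack of sugar induces fell and none rose, with a median of −2.82. BT2 (AT3G48360, bases 17908192 to 17910525 of chromosome 3), a scaffold protein repressed by sugar, was at 1.196 and 0.347 CPM against 167 and 144, 197-fold lower (−7.62 ± 0.50, adjusted p = 0.00151). DIN1 was at 5.72 and 3.52 CPM against 218 and 73.6, DIN10, a raffinose enzyme, at 58.1 and 17.1 CPM against 313 and 305, and DIN6, the asparagine synthetase of starved cells, at 9.08 and 1.54 CPM against 101 and 42.6. GDH2, a glutamate dehydrogenase gene from the senescence list, moved likewise, at 3.68 and 9.57 CPM against 119.9 and 107 (−4.10 ± 0.46, adjusted p = 0.00397). With 1 library left out in turn, 6 to 9 were called. The call of DIN6 ended when 30 °C-grown library 1 was left out (adjusted p = 0.0539).

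Starch genes moved in both directions. Of 18 tested genes of starch breakdown 8 fell and 4 rose. BAM5 (AT4G15210, bases 8666338 to 8669470 of chromosome 4), a beta-amylase outside the chloroplast, was at 3.15 and 3.08 CPM against 529 and 370.0, 144-fold lower (−7.17 ± 0.31, adjusted p = 0.000720). Enzymes that work at night followed: the disproportionating enzyme DPE1 was at 6.20 and 6.10 CPM against 46.2 and 47.7, the phosphorylase PHS2 at 25.1 and 27.1 CPM against 114 and 159.9, the amylase AMY3 at 45.8 and 25.2 CPM against 129 and 167 and the starch phosphatase SEX4 at 13.2 and 15.8 CPM against 42.5 and 47.9. BAM3, the main chloroplast beta-amylase, rose at 679 and 794 CPM against 150.2 and 288 (1.75 ± 0.33, adjusted p = 0.0174), as did BAM9 at 196 and 204 CPM against 68.2 and 65.9, BAM1 and BAM6. Of 15 tested synthesis genes 3 rose, among them GBSS1, which makes amylose, at 495 and 649.9 CPM against 186 and 165 (1.71 ± 0.23, adjusted p = 0.00639). Several of these genes are known to cycle through the day. Without 30 °C-grown library 1, 1 synthesis gene was called. With 30 °C-grown library 1 left out, BAM3, BAM1 and BAM6 no longer passed (adjusted p from 0.0506 to 0.184), nor did BAM1 without 30 °C-grown library 2 (adjusted p = 0.110), nor did BAM1 and BAM6 without sgs3-12 library 2 (adjusted p from 0.0772 to 0.121). Adjusting for gene length ended those of BAM1 and BAM6 (adjusted p from 0.0501 to 0.0507).

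Genes of the iron deficiency response were lower and ferritin genes higher: 12 of 14 tested genes of that response fell and none rose, with a median of −2.30. The bHLH factors that start the response were at 5.41 and 7.74 CPM for BHLH38, 1.99 and 4.17 for BHLH39, 4.56 and 6.10 for BHLH100 and 1.46 and 2.08 for BHLH101 in sgs3-12. In 30 °C-grown plants they were at 87.7 and 77.3, 64.6 and 58.7, 119 and 143 and 24.1 and 29.4 CPM. The log2 fold changes ran from −4.62 ± 0.27 to −3.65 ± 0.27. AT1G47400 (1.82 and 3.32 CPM against 38.7 and 46.8) and AT1G47395 (3.86 and 5.80 CPM against 60.2 and 73.5), short genes of the same response, behaved likewise. PYE, a regulator in iron-poor tissue, was at 9.57 and 10.3 CPM against 44.2 and 60.3, BTS, a ligase and brake on the response, at 135 and 114 CPM against 321 and 568, and FRO3, a reductase, at 37.4 and 41.5 CPM against 147 and 190.3. The root uptake reductase FRO2 (2.75 and 2.88 CPM against 1.66 and 2.84) and the factor FIT (1.64 and 2.13 CPM against 1.122 and 0.837) did not pass, and the uptake transporter IRT1 had too few counts. The 3 ferritin genes, whose proteins store iron, went the other way: FER1 was at 100.2 and 301 CPM against 18.001 and 13.1 (3.69 ± 0.54, adjusted p = 0.00837), FER3 at 20.3 and 24.8 CPM against 7.85 and 6.98 and FER4 at 27.9 and 33.8 CPM against 7.21 and 5.91. FER1's locus overlaps another gene. Every called gene named in this paragraph kept its call in each fit that left out 1 library. The iron deficiency list itself held fewer calls in some of these fits.

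Of 16 tested phosphate starvation genes 4 were lower and 2 higher, against 9.33% and 10.3% of all genes. AT4 (AT5G03545, bases 894706 to 895400 of chromosome 5), a long non-coding RNA that sponges a phosphate microRNA, was at 0.0886 and 0.446 CPM against 58.7 and 37.6, 181-fold lower (−7.50 ± 0.56, adjusted p = 0.00162). GDPD1, a phosphodiesterase, stood at 2.22 and 3.57 CPM against 47.2 and 30.2, and SPX1, a phosphate sensor, at 5.63 and 9.18 CPM against 38.7 and 31.3. PHO1, an exporter, was higher at 20.7 and 24.0 CPM against 8.07 and 12.98, as was the kinase gene PPCK1 at 43.4 and 51.9 CPM against 22.3 and 18.09. Leaving out each library in turn gave 4 to 6 calls in the list. Without 30 °C-grown library 1, the call of PHO1 was lost (adjusted p = 0.212), that of PPCK1 without 30 °C-grown library 2 (adjusted p = 0.0609), that of PHO1 without sgs3-12 library 1 (adjusted p = 0.0574), and that of PHO1 without sgs3-12 library 2 (adjusted p = 0.0952). The length correction ended that of PHO1 (adjusted p = 0.0728).

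Photosynthesis genes were modestly lower where they moved. Of 18 tested antenna genes 4 fell and none rose, and of 30 photosystem, electron carrier and rubisco genes 6 fell and none rose. LHCB1.5 was at 7737 and 7159 CPM against 16648 and 14122 (−1.05 ± 0.18, adjusted p = 0.0126), PSBR at 4136 and 4768 CPM against 8266 and 9474 (−0.99 ± 0.18, adjusted p = 0.0162) and PSBO1, of the water-splitting complex, at 5067 and 4542 CPM against 8117 and 7504 (−0.70 ± 0.17, adjusted p = 0.0359). LHCA3 was at 3885 and 3410.3 CPM against 6453 and 5707 and LHCB1.2 at 3349.8 and 1777 CPM against 6841 and 7076. LHCB1 copies resemble each other, so their split is uncertain, and LHCB1.5 and PSBR overlap other genes. After correction for gene length 2 antenna and 0 photosystem genes were called, and 0 of either list without 30 °C-grown library 1. Antenna calls were 2 without 30 °C-grown library 2 and 8 without sgs3-12 library 1, and photosystem calls 1 without 30 °C-grown library 2 and 2 without sgs3-12 library 2. The abundant genes that rose were GLDP1, a glycine decarboxylase of photorespiration (5671 and 6489.6 CPM against 1991 and 2709), CAT2, the leaf catalase of the same route (3689 and 6067 CPM against 1674 and 1553), CHLH of chlorophyll synthesis (4633 and 3664 CPM against 1567 and 2322), ECS1 (2866 and 5084 CPM against 1647 and 2032) and BCA2, a carbonic anhydrase (3323 and 2957 CPM against 1932 and 1975). PORB, which reduces protochlorophyllide, fell to 29.1 and 9.53 CPM from 218 and 324 (−3.81 ± 0.55, adjusted p = 0.00791), while HEMA1 at the head of that pathway rose (857 and 771 CPM against 303 and 231). Leaving out 30 °C-grown library 1 ended the calls of LHCB1.5, PSBR, PSBO1, LHCA3, LHCB1.2, GLDP1, CHLH, ECS1 and BCA2 (adjusted p from 0.0576 to 0.226), those of PSBR, PSBO1, LHCA3, ECS1 and BCA2 without 30 °C-grown library 2 (adjusted p from 0.0679 to 0.160), those of CHLH and BCA2 without sgs3-12 library 1 (adjusted p from 0.0629 to 0.0839), and those of PSBO1, LHCA3 and ECS1 without sgs3-12 library 2 (adjusted p from 0.0701 to 0.0908). A correction for gene length ended those of PSBR, PSBO1, LHCB1.2, CHLH and BCA2 (adjusted p from 0.0596 to 0.177), and limma ended those of PSBO1, LHCA3, ECS1 and BCA2 (adjusted p from 0.0611 to 0.0743).

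Antioxidant genes were divided, 7 higher and 5 lower of 18. The superoxide dismutase gene CSD2 (677 and 519 CPM against 144 and 179; 1.89 ± 0.24) and the stromal peroxidase gene SAPX (96.8 and 125 CPM against 37.0 and 41.9; 1.49 ± 0.22) rose with CAT2. CAT3, the catalase that peaks in the evening, fell to 524 and 541 CPM from 2248 and 1723 (−1.90 ± 0.21, adjusted p = 0.00400), and FSD2 to 8.20 and 7.54 from 17.9 and 23.1. The list had 5 to 12 calls over the fits that left out 1 library, with 5 without 30 °C-grown library 1 and 7 without 30 °C-grown library 2. When 30 °C-grown library 2 was dropped, the call of FSD2 was lost (adjusted p = 0.0508).

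Flavonoid genes were higher: 10 of 14 tested genes rose and none fell, with a median of 1.297. CHS, the entry enzyme, was at 315 and 318 CPM against 23.2 and 56.2 (2.99 ± 0.42, adjusted p = 0.00750), F3H at 42.9 and 68.0 CPM against 12.9 and 8.65, FLS1, which makes flavonols, at 30.7 and 27.1 CPM against 1.92 and 4.98 and the ligase gene 4CL3 at 30.3 and 19.4 CPM against 2.62 and 3.07. F3H and CHS overlap other genes. The early-light genes ELIP1 (47.0 and 69.0 CPM against 9.19 and 15.3) and ELIP2 (19.1 and 36.4 CPM against 3.85 and 7.30), which shield greening chloroplasts, rose as well. The indolic glucosinolate genes MYB51 (9.26 and 9.77 CPM against 29.0 and 30.2), CYP79B3 (35.5 and 65.6 CPM against 169 and 151) and CYP81F2 (2.39 and 1.54 CPM against 6.84 and 7.44) fell, 3 of 6 tested, and 1 of the 6 was called without 30 °C-grown library 1, while none of 24 aliphatic ones was called. At an unadjusted p under 0.05 there were 5 of the 24, DESeq2 called 2, and without sgs3-12 library 2 4 were. Of the flavonoid genes 6 were called without 30 °C-grown library 1. The calls of ELIP2, CYP79B3 and CYP81F2 ended when 30 °C-grown library 1 was left out (adjusted p from 0.0507 to 0.0662), and that of CYP81F2 without 30 °C-grown library 2 (adjusted p = 0.0533).

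Flowering genes split by member, 4 higher and 5 lower of 25 tested, against 10.3% and 9.33% of all genes. SNZ, an AP2-like floral repressor, was at 39.6 and 37.2 CPM against 5.98 and 5.21 (2.78 ± 0.22, adjusted p = 0.00177), and TEM1 and TEM2, repressors of FT, were at 19.2 and 26.0 CPM against 169.8 and 129.5 and 29.8 and 24.0 CPM against 134 and 105. The SPL factors that promote flowering with age differed: SPL4 (8.42 and 11.1 CPM against 2.19 and 2.46) rose and SPL9 (4.56 and 4.07 CPM against 16.2 and 16.6) and SPL3 (13.3 and 5.85 CPM against 42.4 and 28.6) fell. FT, the mobile flowering signal, stood at 0.798 and 1.98 CPM against 2.24 and 1.63 (adjusted p = 0.577). Without 30 °C-grown library 1, 5 of the flowering genes were called. Of 20 genes of warm-temperature growth 2 rose and 3 fell, against the same shares of all genes. Among them, PIF7 was higher (69.7 and 52.6 CPM against 15.5 and 18.3). ATHB2 (18.2 and 14.7 CPM against 51.4 and 41.9) and SAUR23 (2.97 and 2.13 CPM against 13.2 and 9.77) were lower. After length correction 3 of these 20 were called, and calls also became fewer without 30 °C-grown library 1. With 30 °C-grown library 1 left out, SPL3 no longer passed (adjusted p = 0.0900).

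Most other lists and cell types gave few calls, and epidermal markers were higher. None of 17 tested cell division genes and none of 11 reference genes was called by edgeR, with medians of −0.17 and −0.10. At an unadjusted p under 0.05 there were 0 and 2, and DESeq2 called 0 and 1. Without sgs3-12 library 2, 1 reference gene was called, and without 30 °C-grown library 2, 1 cell division gene. Of 7 epidermal markers 3 rose (FDH, CER6 and CER5, of wax and cuticle), against 10.3% of all genes. All 7 had a positive log2 fold change, with a median of 1.25. Both sgs3-12 libraries lay above both others for 5 of them, against 33.5% of all genes. The summed level of the 7 was 1620.0 to 1638 CPM against 918 to 947. The 3 calls became 1 when either 30 °C-grown library was left out and 1 after length correction. Of 8 guard and myrosin cell markers 1 rose, with summed levels of 2710.0 to 4329 CPM against 3160.0 to 5457; the call was lost without sgs3-12 library 1 and without 30 °C-grown library 1, and 2 were called when either of the others was left out. Vascular markers had 1 call in each direction of 9 (467 to 489 CPM against 449 to 709.9 summed), and 0 without 30 °C-grown library 2 and 1 without sgs3-12 library 1 or 30 °C-grown library 1. Meristem markers summed to 67.0 to 91.1 CPM against 90.17 to 107, with STM, WUS, CLV3 and UFO at 0 counts. Root markers summed to 74.5 to 76.3 CPM against 44.4 to 47.0, with SCR, which leaves also express, called higher and RHD6, PLT1 and EXPA7 at 0 counts. SCR lost its call without each of the 4 libraries in turn (adjusted p from 0.0510 to 0.112) and after length correction (adjusted p = 0.0566). The part of these shifts in the other results was not tested.

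The wild-type pair at 22 °C took no part in any test, and its libraries differed widely from each other in GRP7, iron genes and FER1. On a scaling over all 10 libraries, LHY was at 21.6 and 4.08 CPM there, GRP7 at 80.9 and 3268, BHLH38 at 0 and 32.6 and FER1 at 269 and 11.2. PR1 stood at 0 and 1.34 CPM, PR2 at 8.22 and 30.2 and SDC at 0.265 and 0.139, below both sgs3-12 libraries in each case. Transposable element genes called higher in sgs3-12 differed in this respect. Those named above lay below both sgs3-12 libraries, such as AT4G04293 at 3.49 and 6.77 CPM. By contrast, AT4G04410 (48.0 and 23.3 CPM) lay above both. AT2G11240 (171 and 217 CPM) and AT1G25430 (18.3 and 15.3 CPM) lay near or above the sgs3-12 levels. BAM5 was at 2.70 and 5.93, ERF6 at 1.06 and 9.73 and HSP17.6A-CI at 1.15 and 1.16 CPM, below both 30 °C-grown libraries. ARF4 was at 22.5 and 28.6 CPM and HTT2 at 10.2 and 6.999, below both sgs3-12 libraries. These levels are descriptions, and no difference from the wild-type pair was tested.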

How the data were processed

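PolyA RNA from leaves was sequenced in 10 libraries, of which the 4 of sgs3-12 and 30 °C-grown Col-0 were compared here. Read counts per gene, not normalized, were deposited by the authors in 1 table with FPKM values beside them. Per the submitters' processing notes, HISAT2 2.0.4 and StringTie 1.3.0 were used with TAIR10; the counting program and the treatment of shared reads are not stated in the sources used here. The deposited FPKM values of the sgs3-12 libraries, length- and depth-scaled fragments as the authors made them, served only to work out gene lengths, which 31 tested genes lack. The 8 other per-sample value columns were not used.

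Genes were kept by edgeR's filterByExpr (minimum count 10). Counts were scaled by TMM and fitted with edgeR 4.0.16 (quasi-likelihood test, R 4.3.3, group as the only term), and p-values were adjusted over all 19221 genes with a threshold of 0.05. DESeq2 1.42.0 and limma 3.58.1 were alternatives, as were other scalings and filters, a length offset, blocks by replicate number and leaving out each library. The scripts were tested on simulated data. The genes and gene lists, and the comparison itself, were chosen with earlier results of these data known. The rule for genes to name took, in each direction, the 12 largest called changes among genes with a mean of 5 CPM or more, up to 4 called members of each list with the smallest p, the 5 most abundant called genes, and SGS3 with its pathway and targets; some list members it takes are not printed. The transposable element genes other than AT2G15800 and AT2G15810, and ALD1, AMY3, AT1G47400, BHLH39, BTS, CBP60G, COR15A, COR47, DIN6, DIN10, EDS1, EDS5, ELF4, ERF105, FIT, FKF1, FMO1, FRK1, FRO2, FRO3, HSP15.4, HSP17.4-CI, ICS1, JAZ10, MYC2, NCED3, PAD3, PYE, SAG101, SEX4, SZF1, TCH4, WRKY46 and ZAT10, lie outside that rule and were chosen after their values were seen. Against a group with 0 counts, a fold is a bound that uses a floor of 3 counts over the group, and 95% intervals of count ratios cover counting error only. Of 33602 genes 32835 matched RefSeq's TAIR10.1 annotation, used for names, strands and promoters.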

Additional observations from a re-analysis of the deposited data

How the results depend on the processing

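The count of 3782 called genes ranged from 3267 to 4840 under DESeq2 (4840), limma (3776 and 3921), other size factors, filters on low counts, leaving out organelle genes (3758) and a length correction (3267, of which 2843 shared). Upper-quartile scaling shifted the median log2 fold change of all genes from 0.01 to −0.10 and gave 1629 higher and 2179 lower. Fitted with all 10 libraries, 0 genes were called (2341 at an unadjusted p under 0.05) and SGS3 stood at −1.41 (adjusted p = 0.256). With a replicate block, edgeR called 1420 genes and SGS3 kept an adjusted p of 0.0400. Same-numbered libraries deviated with a correlation of −0.28 over genes. A single such correlation cannot settle whether the numbers pair the libraries. A crossed replicate block, added after the data had been seen, called 6330. Leaving out 1 library gave 1209 to 2828 called genes and SGS3 values of −1.54 to −1.26; in such fits the lone library is assumed to vary like the other group. Among values that missed the threshold, the sign turned for TAS1C (−0.033 with upper-quartile scaling) and, after length correction, for TAS1B (0.33), ARF2 (−0.26) and RDR6 (−0.043). With 1 library left out, ranges that crossed 0 were −0.013 to 0.26 for TAS1A, −0.30 to 0.29 for TAS1B, −0.071 to 0.21 for TAS1C, −0.72 to 0.054 for AGO7 and −1.27 to 0.041 for FT. Of 172 called genes among those followed, none reversed under any of these; 67 lost the call without 30 °C-grown library 1, 29 to 39 without any other, 55 with the block, 29 after length correction, 12 with upper-quartile scaling, 7 with limma and 2 with DESeq2. The causes of these losses were not tested. Genes that lost the call without each of the 4 libraries include KIN1, HEN1, EMF2, FIE, AT1G12775, AT1G11265, CER5 and SCR. MYB114 lost it without 3 of them.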

Other observations

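Gene families taken from the table's descriptions, chosen after values had been seen, are given here as counts with no test. For comparison, 10.3% of all tested genes were higher and 9.33% lower. Cysteine-rich receptor-like kinases, surface proteins of which several respond to salicylic acid, had 16 of 28 tested members higher in sgs3-12 and none lower (57.1%, against 10.3% of all genes), with a median log2 fold change of 1.09. Their number was 15 after length correction and 11 without 30 °C-grown library 1. Disease resistance proteins, mostly intracellular immune receptors, had 46 of 115 higher and 1 lower, with a median of 0.83; after length correction 28 were higher and 4 lower, and without 30 °C-grown library 1 16 and 0. Ethylene-responsive factors went the other way, with 3 higher and 30 lower of 70 and a median of −1.06, and 1 higher and 15 lower without 30 °C-grown library 1. WRKY factors split, 13 higher and 8 lower of 51, and 9 and 5 without 30 °C-grown library 1; no fit with 1 library left out had fewer than 9 higher or 5 lower.

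Pentatricopeptide repeat proteins, which act on organelle RNA, had 8 higher (2.19%) and 21 lower (5.74%) of 366. Both shares lay under the 10.3% and 9.33% of all genes, and most of these calls ended without 30 °C-grown library 1. Protein phosphatases 2C had 13 higher (19.7%) and 6 lower (9.09%) of 66, and fewer of each without 30 °C-grown library 1. Expansins, which loosen walls, had 2 higher and 5 lower of 20, and 1 and 2 without 30 °C-grown library 1. Genes of the mitochondrial genome had 0 higher and 11 lower of 40, which became 7 lower after length correction and 1 without 30 °C-grown library 1.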
